A study of Mus musculus with 4 samples.

Results

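The transcripts of 7 genes were followed in naive CD4+ T cells and in the same cells after the first 3 h of iTreg culture, in wild type (WT) and Nr4a-TKO cells. The genes encode surface proteins that mark T cell activation or set how strongly the T cell receptor (TCR) signals: Cd69, Cd44, Cd5, Cd6, Cd24a, Tfrc and Ly6a. They were taken by name from the array annotation, which gave 12 probes among 56605 and 7 genes among 32562, and every probe was kept. A TCR signal changes the surface of a naive T cell within hours. CD69 appears first and holds the cell in the lymphoid organ, CD44 binds hyaluronan in the matrix, and the transferrin receptor encoded by Tfrc brings in the iron that growth and division need. CD5 and CD6 are scavenger receptor proteins that sit beside the TCR and mostly restrain it, CD24 is a heavily glycosylated protein best known from immature thymocytes, and Ly6a encodes Sca-1, a lipid-anchored protein that interferons induce. The Nr4a proteins are nuclear receptors without a known ligand whose own genes are switched on by TCR signals.

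One single-colour Agilent array was hybridized for each of 4 groups, naive T and iTreg 3 h cells of WT and of Nr4a-TKO genotype, and values below keep the order of WT naive T, then Nr4a-TKO naive T, then WT iTreg 3 h, then Nr4a-TKO iTreg 3 h where no group is named. The mice were C57BL/6J with a human CD2-CD52 reporter in Foxp3, and the Nr4a-TKO cells carried floxed Nr4a1, floxed Nr4a2 and Nr4a3-/- alleles. Naive cells were sorted from spleen and lymph nodes by gates that, per the labels, included CD4+, Foxp3-, CD25low and CD44low, so a low surface level of CD44 was itself part of the gate. All came from irradiated Rag2-/- recipients of bone marrow. The Nr4a-TKO cells were taken from recipients that had WT and Nr4a-TKO marrow together, the WT cells from recipients of WT marrow alone, and this difference in source cannot be told apart from genotype. For the iTreg groups, naive cells were kept for 3 h on plate-bound anti-CD3 (2 µg/ml) and anti-CD28 (0.5 µg/ml), with anti-IFN-γ and anti-IL-4 (1 µg/ml each), IL-2 (10 ng/ml) and TGF-β1 at 0.2 or 0.5 ng/ml, where the dose used for the arrays is not given. The study kept mice 6-8 weeks old of both sexes and sorted naive cells 6 weeks after the marrow transfer, and the number of mice behind each RNA is not given in the sources used here.

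With 1 array per group there was no replicate, so differences are given as log2 values without a test. Probes printed on several spots of an array had a median SD between 0.11 and 0.13 (log2), or 0.18 once 2 arrays are subtracted. Called the spot spread here, it says nothing of cells, cultures or mice, and the number of arrays limits every value below. The 4 arrays were on 1 slide read in 1 scan, between 64.9% and 67.6% of probes were well above background, and no spot was saturated. In bulk RNA, fewer cells that express a gene and less RNA per cell cannot be told apart. The T cell genes Cd3e (12.19 to 13.05, log2 normalized intensity) and Cd4 (10.07 to 11.60) were bright on the 4 arrays. The targeted genes went only partly with the labels. Nr4a1 read 7.05 and 8.39 in WT and Nr4a-TKO naive T, and 11.34 and 11.82 in WT and Nr4a-TKO iTreg 3 h. Of 3 Nr4a3 probes, the difference at 3 h between the array labelled Nr4a-TKO and WT was -1.86, -1.47 and 0.19, and both Nr4a2 probes went against the label, at 1.37 and 1.38. Whether these probes lie within the deleted parts of the genes was not checked, so the readings do not decide whether the labels are right. Every genotype difference below therefore rests on the labels of the arrays.

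The values are readings of 60-base probes. The first 30 bases of those on which the results turn are shown, 5′ to 3′, because several genes were read by more than 1 probe with unequal answers, and because the Ly6c1 and Ly6c2 probes are near copies of each other. Capitals mark the base within these 30 at which the Ly6c1 and Ly6c2 probes differ.
Cd69, probe 1: ttttgtcaattgttctccaccaaagaataa
Cd44, probe 1: gacgagacccggaatctgcagagtgtggac
Cd44, probe 2: atattaactctataaaataaggctgtccct
Cd44, probe 3: acagatttcttcgacccaatctcacatcca
Cd24a, probe 1: cctcacacctgcatgctgtacatctatttg
Cd24a, probe 2: cttggttctaccgtaagtttttccaatttc
Tfrc, probe 1: tgagcaagatcacattaacaaagactagtt
Ly6a: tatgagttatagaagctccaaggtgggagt
Ly6c1, probe 1: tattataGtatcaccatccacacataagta
Ly6c2: tattataCtatcaccatccacacataagta

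**Figure D1:**
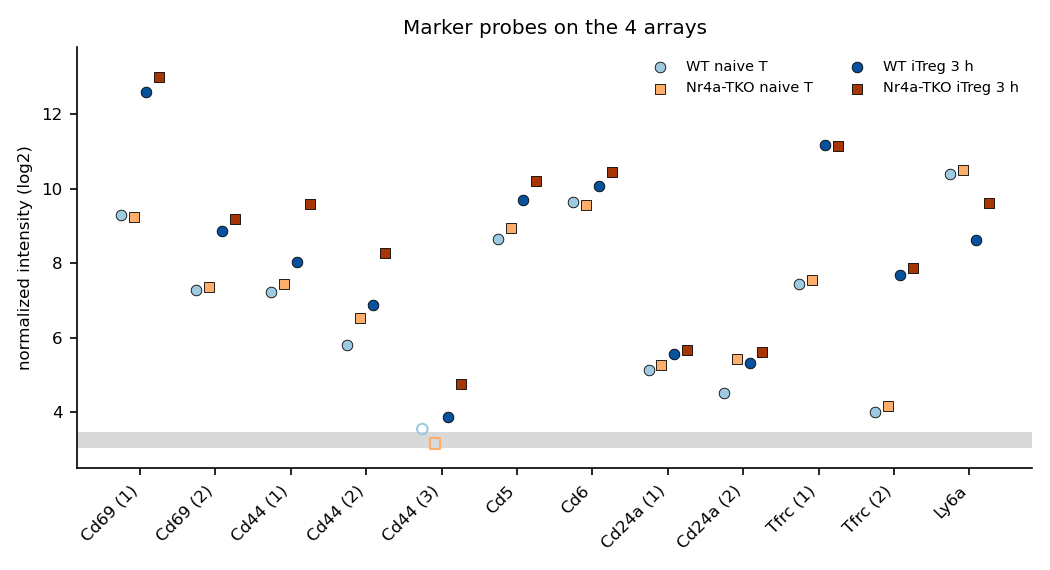
Normalized intensity (log2, vertical axis) of the 12 probes on the 4 arrays, with numbers in brackets for genes read by several probes (1 is the brightest). Open symbols were not well above background, and the grey band spans the lowest well-above-background values of the arrays. Cd69 and Tfrc stand far higher at 3 h, the dark symbols of Cd44 lie apart, and Ly6a runs the other way.

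Between naive T and iTreg 3 h, 3 of the 7 genes were more than 2-fold higher in WT cells (Tfrc, Cd69 and Cd5) and 1 was more than 2-fold lower (Ly6a), where a gene takes its brightest probe. Over all genes compared, 8.43% were higher past 2-fold and 8.57% lower. In Nr4a-TKO cells 4 of the 7 were higher (Cd69, Tfrc, Cd44 and Cd5) and 0 lower, against 7.82% and 8.01% of all genes. The median of the 7 was 0.80 in WT and 1.28 in Nr4a-TKO, beside -0.05 and -0.02 over all genes. Counted by probe, 6 of 12 were more than 2-fold higher and 1 lower in WT cells, and 8 and 0 in Nr4a-TKO cells, against 9.27% and 8.49% of all probes in WT and 8.23% and 7.94% in Nr4a-TKO. On the brightest probes, the label of activation markers thus held for Cd69, Tfrc and Cd5 in both genotypes. Cd44 passed 2-fold on its brightest probe in Nr4a-TKO only, though its second probe passed it in WT too (1.08). Cd24a and Cd6 stayed inside 2-fold and Ly6a was lower at 3 h. The comparison of genotypes gave smaller values. Among naive cells 0 of the 7 genes and 0 of the 11 probes with a value were past 2-fold, against 1.92% of all genes higher and 1.68% lower in Nr4a-TKO and 1.83% and 1.67% of all probes. At 3 h 2 of the 7 were more than 2-fold higher in Nr4a-TKO (Cd44 and Ly6a) and 0 lower, against 1.74% and 1.94% of all genes, and the medians of the 7 were 0.10 in naive cells and 0.41 at 3 h.

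**Figure D2:**
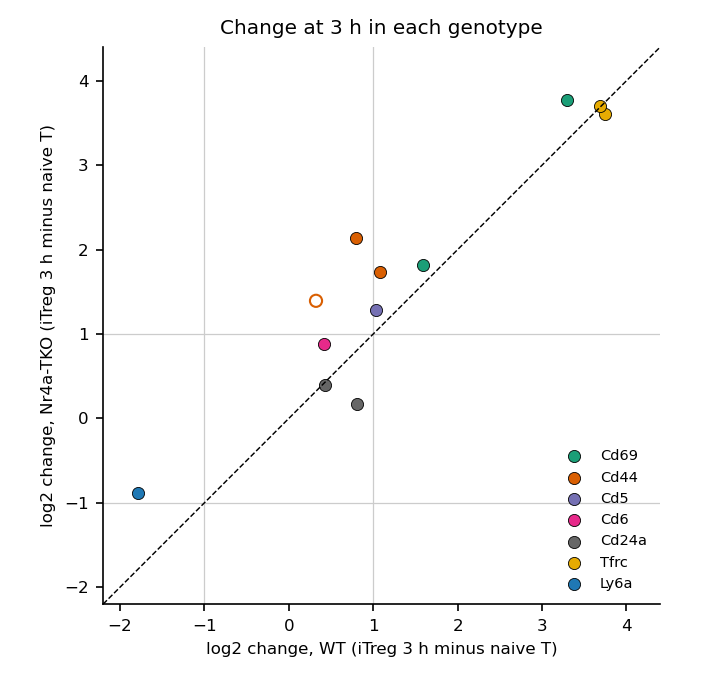
Log2 change from naive T to iTreg 3 h in WT (horizontal axis) and in Nr4a-TKO (vertical axis) for each probe. Grey lines are at 2-fold and the dashed line is where both changes are equal. The open symbol is the Cd44 probe that was not well above background on the naive arrays. Cd44 (0.80 and 2.13 on its brightest probe) and Ly6a (-1.78 and -0.88) lie farthest above the dashed line, and the 2 Tfrc probes lie on it.

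Cd69 encodes a lectin-like receptor that binds the sphingosine 1-phosphate receptor S1P1 and takes it off the surface, which keeps activated lymphocytes from leaving the tissue. Its brightest probe, on the minus strand at chr6:129217697-129217756 (mm9), read 9.30 in WT naive T, 9.23 in Nr4a-TKO naive T, 12.59 in WT iTreg 3 h and 13.00 in Nr4a-TKO iTreg 3 h. The naive arrays lay within the spot spread of each other and both iTreg arrays stood far above them. In the scanner's processed intensity, before any scaling between arrays, this was 589 and 552 against 7401 and 9311. The change was 3.30 in WT (9.82-fold) and 3.78 in Nr4a-TKO (13.7-fold), and only 46 and 19 genes had a higher value in the same comparison. At 3 h the Nr4a-TKO array was 0.41 above the WT array, more than the spot spread of 0.18 and short of 2-fold.

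A second probe, matched to a cDNA clone at chr6:129223547-129223606, gave 7.28, 7.37, 8.86 and 9.19 in the same order. Its changes were 1.58 in WT and 1.82 in Nr4a-TKO, about as ordered as on the bright probe but smaller, and the genotypes differed at 3 h by 0.32. Both probes thus placed the arrays in the order of naive cells, WT iTreg 3 h and Nr4a-TKO iTreg 3 h. The change in Nr4a-TKO exceeded that in WT by 0.48 on the first probe and 0.23 on the second. A list of genes for lectin-like proteins, most from the natural killer gene complex on chromosome 6 that holds Cd69, did not share its increase. Of 9 with a value in WT, 0 were more than 2-fold higher and 3 lower (median -0.80), and of 7 in Nr4a-TKO 1 was higher and 2 lower (median -0.45). The largest in WT were Klrg1 (-1.50, a bound) and Klrd1 (-1.19, a bound), and in Nr4a-TKO Clec2i (-1.57), Clec2g (-1.31) and Klrb1b (1.11, a bound). Among naive cells 3 of 9 were lower in Nr4a-TKO, with bounds of -1.56 for Klrg1 and -1.25 for Klrd1, and at 3 h 1 of 8 was higher, Klrb1b with a bound of 1.05.

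S1pr1, the gene for the receptor that CD69 opposes, was lower at 3 h, as was Klf2, the gene of a transcription factor that drives it. S1pr1 read 10.12, 10.03, 6.03 and 6.29 on the 4 arrays, a change of -4.08 in WT and -3.74 in Nr4a-TKO. Klf2 changed by -3.40 and -3.29. Of 11 genes of lymphocyte egress, 6 were more than 2-fold lower and 2 higher in WT (median -1.76), and 7 and 2 in Nr4a-TKO (median -1.20). The higher ones were Gfi1, a transcriptional repressor (3.58 and 2.76), and Sphk1, a kinase that makes sphingosine 1-phosphate (1.33 and 1.62, a bound in WT). The genotypes differed past 2-fold in Sphk1, with a bound of 1.01 in naive cells and 1.30 at 3 h, and in Spns2, the exporter of sphingosine 1-phosphate, at -1.28 in naive cells.

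Tfrc encodes the transferrin receptor, whose mRNA is stabilized when iron in the cell is short. It was as strongly higher at 3 h as Cd69, and the genotypes could hardly be told apart. The brightest probe, on the plus strand at chr16:32632255-32632314, read 7.44 in WT naive T, 7.54 in Nr4a-TKO naive T, 11.18 in WT iTreg 3 h and 11.15 in Nr4a-TKO iTreg 3 h. The change was 3.75 in WT (13.4-fold, with 19 genes higher) and 3.61 in Nr4a-TKO (12.2-fold, with 28 genes higher). At each stage the genotypes differed by less than the spot spread, by 0.10 in naive cells and -0.039 at 3 h. The dimmer probe at chr16:32620470-32620529 read 4.01, 4.18, 7.69 and 7.89, with changes of 3.68 and 3.71. Its genotype difference was 0.17 in naive cells, within the spot spread, and 0.20 at 3 h, just past it. These changes were almost those of the bright probe, but the dim probe depended far more on the processing. Over 6 ways of processing the same spots its WT change ran from 1.96 to 4.28, against 3.41 to 4.03 on the bright probe.

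The genes that handle the iron which Tfrc brings in stayed near their naive levels. Of 16 with a value, 1 was more than 2-fold higher in each genotype, Slc39a14, a transporter of zinc and iron (1.68 in WT and 1.64 in Nr4a-TKO), and 0 were lower, with medians of -0.16 and 0.05. The ferritin chains gave -0.28 and -0.07 for Fth1 and -0.22 and -0.28 for Ftl1. The iron sensors that bind the Tfrc message gave 0.53 and 0.76 for Ireb2 and 0.46 and 0.72 for Aco1. Between genotypes 1 of 16 was past 2-fold, Slc11a2, an iron transporter, at -1.55 in naive cells and -0.96 at 3 h. Red cell precursors are rich in Tfrc. Of 8 of their genes with a value, 0 were more than 2-fold higher in either genotype at 3 h. In WT 2 were more than 2-fold lower, Gata1 (-2.06) and Slc4a1 (-1.65), and in Nr4a-TKO 1, Gata1 (-1.93). The globin gene Hbb-b1 and Ahsp were not well above background on any array, and Hba-a1 read between 6.47 and 6.98.

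Cd44 gave the largest difference between the genotypes at 3 h among the 7 genes. Its brightest probe, on the minus strand at chr2:102654278-102654337, read 7.23 in WT naive T, 7.45 in Nr4a-TKO naive T, 8.03 in WT iTreg 3 h and 9.59 in Nr4a-TKO iTreg 3 h. The 4 arrays were apart by more than the spot spread at every step of that order, and the Nr4a-TKO iTreg array stood 1.56 above the next (2.95-fold). The change was 0.80 in WT, short of 2-fold (1.04 without quantile normalization), and 2.13 in Nr4a-TKO (4.39-fold), a difference of 1.34 between the changes. In the comparison of genotypes at 3 h 145 of 23515 genes had a higher value. The processed intensities, unscaled, were 151 and 171 in naive cells and 321 and 953 at 3 h.

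The second Cd44 probe, at chr2:102652758-102652817, read 5.80, 6.54, 6.88 and 8.27. It placed the genotypes 0.75 apart already in naive cells and 1.40 apart at 3 h, with changes of 1.08 in WT and 1.73 in Nr4a-TKO. The third, at chr2:102677971-102678030, was well above background only on the iTreg arrays, at 3.88 in WT and 4.76 in Nr4a-TKO, a difference of 0.89. Its increase, from naive readings that were dim, was 1.25-fold in WT and at least 2.63-fold in Nr4a-TKO as reported. Over 6 ways of processing the log2 change ran from 0.04 to 0.32 in WT and from 0.35 to 1.59 in Nr4a-TKO. All 3 probes therefore read highest in Nr4a-TKO iTreg 3 h. They did not give the same picture of naive cells, where the genotype difference was 0.23 on the first and 0.75 on the second. At 3 h these 2 Cd44 probes and Ly6a were the 3 of 12 probes more than 2-fold higher in Nr4a-TKO, against 1.64% of all probes, and 0 of 12 were lower, against 1.89%.

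The partners of CD44 moved little. Ezrin, radixin and moesin tie CD44 to the actin skeleton, and their genes gave -0.93, 0.50 and -0.06 in WT and -0.54, 0.54 and -0.14 in Nr4a-TKO for Ezr, Rdx and Msn. Of 14 partner genes with a value, 0 were more than 2-fold higher and 1 lower in WT (Slc9a3r1, a scaffold of ezrin, -1.98). In Nr4a-TKO 1 was higher (Srsf10, a splicing factor, 1.15) and 2 lower (Ank3, a bound of -1.97, and Slc9a3r1, -1.30). Between genotypes Ank3 alone was past 2-fold, with a bound of 1.60 in naive cells. Cd74, the invariant chain that pairs with CD44 as a receptor, was 0.75 higher in Nr4a-TKO naive T and 0.86 higher at 3 h. The B cell genes given below bear on Cd74 too, and their part was not tested.

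CD44 is also the usual mark of memory T cells, and B cells carry it too, so the genes of both were read beside it. Of 12 memory or activated T cell genes, 2 were more than 2-fold higher in Nr4a-TKO at 3 h, Ahnak at 2.29 and Cxcr3 at 1.30, and 7 were above 0 (median 0.24). In naive cells the same list gave 2 higher (Ahnak 1.90 and Id2 1.03) and 1 lower (S100a4, -2.17), with 4 above 0 and a median of -0.12. Its summed linear level was 4326 in WT and 6804 in Nr4a-TKO naive T, and 2380 and 3616 at 3 h. Bright genes weigh most in such a sum, and Ahnak read 9.38 in WT and 11.28 in Nr4a-TKO naive T (log2). Of 12 B cell genes, 12 were above 0 at 3 h (median 0.37) and 2 past 2-fold, Cd79a at 1.14 and Bank1 at 1.12, while 9 were above 0 in naive cells (median 0.09). The summed level of that list was 3681 and 3808 in naive cells and 2764 and 3268 at 3 h, and Ms4a1, a defining gene of B cells, was 0.07 higher in Nr4a-TKO at 3 h. The part of either cell type in the Cd44 difference was not tested.

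**Figure D3:**
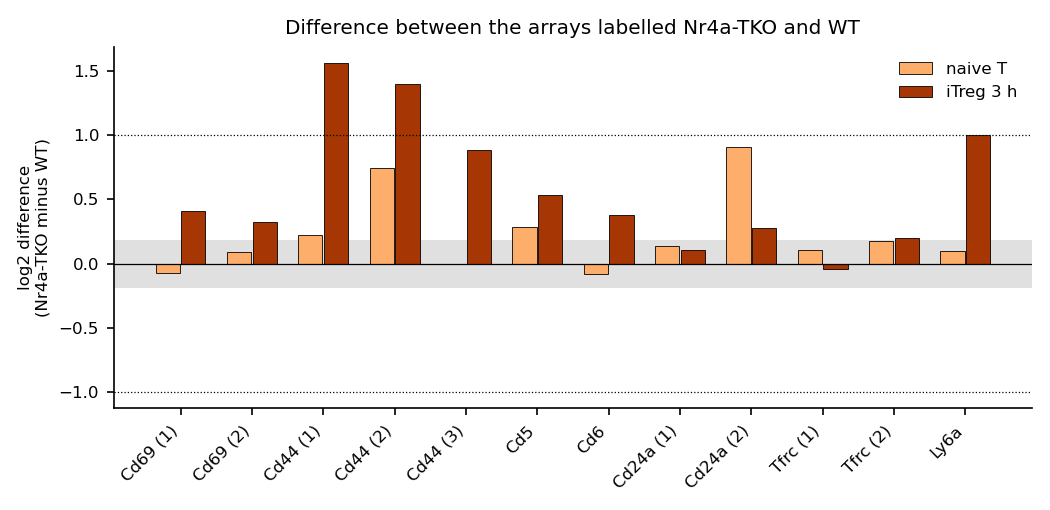
Log2 difference between the arrays labelled Nr4a-TKO and WT for each probe, in naive T (light bars) and iTreg 3 h (dark bars), with dotted lines at 2-fold and a grey band of 1 spot-to-spot SD (0.18) on each side of 0. The third Cd44 probe has no bar in naive cells, where it was not well above background. At 3 h the first 2 Cd44 probes pass 2-fold and Ly6a lies on the line, and in naive cells the second probes of Cd44 and Cd24a stand out.

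Cd5 and Cd6 lie near each other on chromosome 19 and encode related receptors. The level of CD5 on a T cell is known to follow the strength of the TCR signals it has had. The Cd5 probe, on the minus strand at chr19:10792701-10792760, read 8.65 in WT naive T, 8.94 in Nr4a-TKO naive T, 9.68 in WT iTreg 3 h and 10.22 in Nr4a-TKO iTreg 3 h. Each step of that order was larger than the spot spread. The change was 1.03 in WT, just past 2-fold, and 1.28 in Nr4a-TKO. In WT it was 0.95 with a normexp offset of 50, which adds a constant to every intensity, and 0.998 with no background correction. The genotypes differed by 0.28 in naive cells and 0.53 at 3 h. Cd6, at chr19:10863891-10863950, read 9.65, 9.57, 10.07 and 10.45. Its naive arrays could not be told apart at this precision (-0.083), and its changes of 0.41 in WT and 0.88 in Nr4a-TKO were short of 2-fold, though the second passed it under 3 other ways of processing (1.09 to 1.25). At 3 h the Nr4a-TKO array was 0.38 higher. Neither gene was past 2-fold between genotypes, though both were highest in Nr4a-TKO iTreg 3 h.

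The ligand of CD6 and an inhibitor beside CD5 were further apart between the genotypes than Cd5 and Cd6 themselves. Alcam, the ligand of CD6, read 5.46, 6.01, 6.19 and 7.86 on its brightest probe and was 1.67 higher in Nr4a-TKO at 3 h. Its second probe gave 3.99, 5.51, 5.60 and 7.26 and a difference of 1.66, and a dimmer probe was well above background only in Nr4a-TKO iTreg 3 h. On the second Alcam probe the genotypes were already 1.52 apart in naive cells, against 0.55 on the brightest. The changes on that second probe were 1.61 in WT and 1.75 in Nr4a-TKO, against 0.73 and 1.85 on the brightest. Cblb, a ubiquitin ligase that restrains TCR signalling and associates with CD5, went the other way. Its change was 1.73 for WT and 0.80 for Nr4a-TKO, and 4 of 4 probes were more than 2-fold lower in Nr4a-TKO at 3 h, from -1.55 to -1.04. Ubash3a, a phosphatase-like suppressor of TCR signals, was 1.14 below WT at 3 h on its brightest probe (-0.90 and -0.80 on the others).

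Over the 15 genes listed as partners of CD5 and CD6, 1 was more than 2-fold higher and 5 lower in WT (median -0.39), with Grap2, an adaptor, at -2.68 and Tnik, a kinase, at -1.66. In Nr4a-TKO 1 was higher, Alcam at 1.85, and 3 lower, led by Ubash3a at -2.21 and Grap2 at -2.15 (median -0.44). Between genotypes 0 were past 2-fold in naive cells on their brightest probes, though the second Alcam probe was. At 3 h 1 was higher and 2 lower, the 3 genes just described, with a median of 0.03.

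Cd24a was dim on both probes and the probes disagreed. The first, on the plus strand at chr10:43303932-43303991, read 5.14 in WT naive T, 5.27 in Nr4a-TKO naive T, 5.56 in WT iTreg 3 h and 5.66 in Nr4a-TKO iTreg 3 h, with changes of 0.42 and 0.39. The second, at chr10:43303706-43303765, read 4.53, 5.44, 5.33 and 5.61. There WT naive T stood alone below the other arrays, the naive genotypes were 0.91 apart, and the changes were 0.80 in WT and 0.17 in Nr4a-TKO. The change in Nr4a-TKO minus that in WT was -0.63 on the second probe and -0.033 on the first. The first 60-base probe shares a run of at least 14 bases with probes of 5 other named genes and the second with 2, and what this adds to either reading was not tested.

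Fyn, a Src-family kinase that relays CD24 signals, was 1.06 higher in WT at 3 h and 0.23 higher in Nr4a-TKO, and was the only 1 of 6 CD24 partner genes past 2-fold in WT, with 0 of 7 in Nr4a-TKO. Between genotypes 0 of them were past 2-fold at either stage (medians -0.10 in naive cells and 0.16 at 3 h). CD24 is high on thymocytes. Of 9 thymocyte genes with a value in WT, 4 were more than 2-fold lower at 3 h and 0 higher (median -0.68), led by Themis, which tunes TCR signals in thymocytes (-2.93), and Cd1d1, which presents lipids (-2.26). In Nr4a-TKO 3 of 10 were lower, led by Cd1d1 (-2.33) and Themis (-1.72), and the median was -0.67. At 3 h 0 of 10 were past 2-fold between genotypes (median -0.13). Of 10 thymocyte genes with a value among naive cells, 1 was above 0 in Nr4a-TKO naive T, Rag2 with a bound of 1.86, and the median was -0.18. Rag1 was not well above background on any array, and Dntt and Ptcra were 0.61 and 0.27 lower. The B cell genes given beside Cd44 bear on Cd24a too, since B cells carry CD24, and their part was not tested.

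Ly6a ran against the other 6 genes. It read 10.41 in WT naive T and 10.51 in Nr4a-TKO naive T, 8.62 in WT iTreg 3 h and 9.62 in Nr4a-TKO iTreg 3 h on its single probe, on the minus strand at chr15:74825553-74825612. The naive arrays were within the spot spread of each other and above both iTreg arrays. The change was -1.78 in WT (3.44-fold lower) and -0.88 in Nr4a-TKO (1.84-fold lower), a difference of 0.90 between the changes. At 3 h Nr4a-TKO was 1.00 higher, just past 2-fold, with 409 of 23515 genes higher. The unscaled processed intensities were 1231 and 1303 in naive cells and 462 and 900.1 at 3 h.

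Some relatives of Ly6a were lower at 3 h too and others stayed near their naive levels, such as Ly6h (0.05 in WT and 0.41 in Nr4a-TKO) and Slurp1 (0.22 and 0.55). Ly6c1 and Ly6c2, which mark a subset of T cells and monocytes, gave WT changes of -2.07 and -2.06 and Nr4a-TKO changes of -1.10 and -1.06, and were 0.98 and 0.99 higher in Nr4a-TKO at 3 h. These are not independent readings, since the probes shown above match at 57 of 60 bases and differ by G8C, A57G and C60T (Ly6c1 base, position from the 5′ end, Ly6c2 base). The Ly6a probe shares no run of 14 bases with a probe of any other gene. A second Ly6c1 probe read 9.67 in WT naive T, 8.84 in Nr4a-TKO naive T, 7.36 in WT iTreg 3 h and 7.34 in Nr4a-TKO iTreg 3 h. It was lower at 3 h in each genotype too, at -2.31 in WT and -1.50 in Nr4a-TKO, but the genotypes were level at 3 h (-0.02) and apart in naive cells (-0.83).

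Ly6e had a WT change of -1.32 and an Nr4a-TKO change of -0.995, the latter just short of 2-fold, with 0.27 between the genotypes at 3 h. Of the 20 other genes of the Ly6 family with a value in WT, 6 were more than 2-fold lower and 0 higher (median -0.29), led by Lypd6b at -2.88 and Ly6c1. In Nr4a-TKO 2 of 19 were lower, Ly6c1 and Ly6c2 (median -0.21). Between genotypes 1 of 20 was past 2-fold in naive cells, Lypd6b at -2.39, and 0 of 19 at 3 h, where the median was 0.16.

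Interferon induces Ly6a, and 16 interferon-stimulated genes were set beside it. They were far lower at 3 h in both genotypes: 10 of 16 were more than 2-fold lower in WT (median -1.63) and 10 of 15 in Nr4a-TKO (median -1.59). Xaf1 changed by -3.97 and -3.73, and Ifit3 by -3.93 and -4.02 (bounds). Between the genotypes at 3 h 0 of 13 were past 2-fold and the median was 0.06, whereas Ly6a was 1.00 apart. In naive cells the median was 0.01 and 1 of 16 was past 2-fold, Oasl2 with a bound of -1.04. The median of the list thus went down with Ly6a in both genotypes. Between genotypes at 3 h 7 of the 13 were above 0, such as Gbp2 (0.50) and Irf7 (0.48), and others below, such as Ifit2 (-0.30). The part of interferon in the Ly6a difference was not tested.

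**Figure D4:**
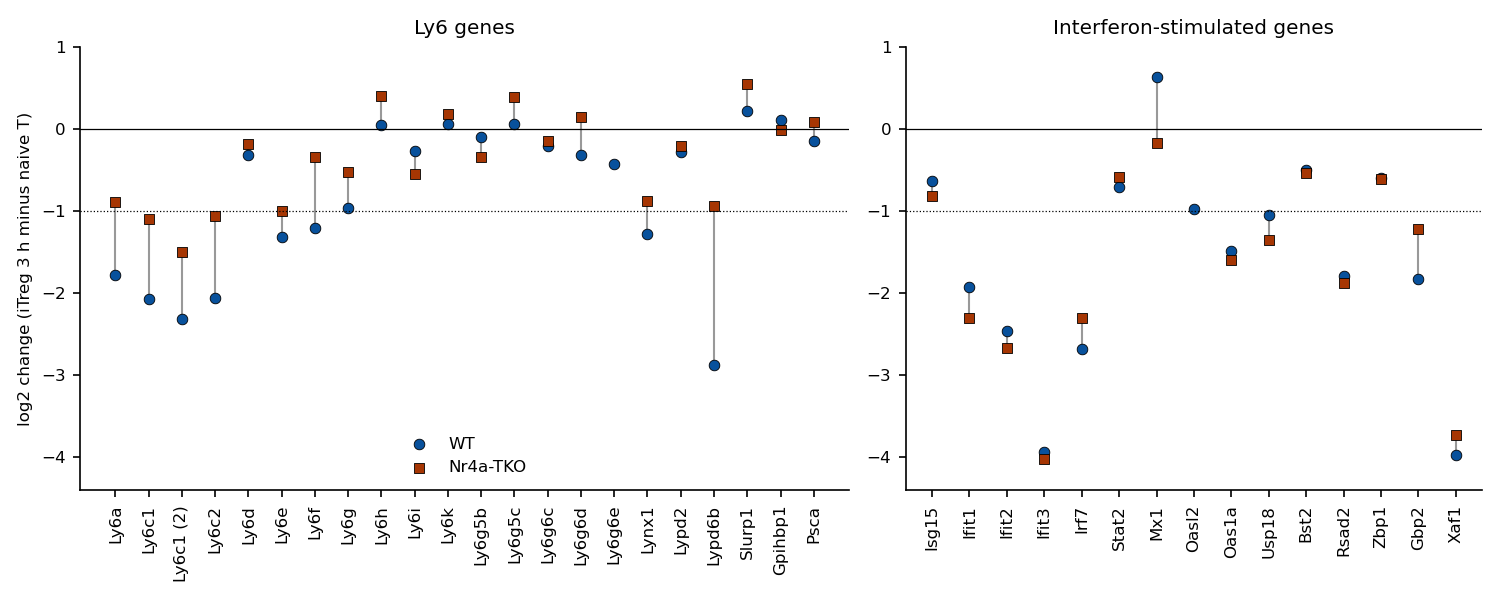
Log2 change from naive T to iTreg 3 h in WT (circles) and Nr4a-TKO (squares) for the genes of the Ly6 family with a value on the left and for interferon-stimulated genes on the right, with a dotted line at 2-fold lower. On the left, Ly6a (-0.88 against -1.78), Ly6c1, Ly6c2, Ly6f and Lypd6b have squares well above the circles and others lie near 0, while on the right squares lie above circles for some genes and below for others, with pairs often close (-0.60 and -0.60 for Zbp1). Oasl2 and Ly6g6e have no value in Nr4a-TKO.

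The other genes of the first hours show how far the cells had gone. Of 14 immediate early genes with a value in WT, 9 were more than 2-fold higher and 2 lower, and of 15 in Nr4a-TKO 9 and 1. Irf4, a transcription factor gene dosed by TCR signal strength, changed by 6.35 and 5.21, and Il2 by 3.36 (a bound) and 4.22. Fos, which peaks within the first hour of a stimulus, was lower by then, at -2.39 and -2.73, as was Fosb in WT (-1.20). At 3 h 2 of 15 were more than 2-fold higher in Nr4a-TKO, Cd83 at 1.28 and Il2 at 1.20, and in naive cells 1 of 14, Irf4 at 1.25. Of 10 genes of naive T cells 7 were more than 2-fold lower in WT and 8 in Nr4a-TKO, with medians of -2.41 and -2.31. Of 8 Treg genes, 1 was more than 2-fold higher in WT (Lrrc32, 1.06) and 1 lower (Gpr83, -1.54), and in Nr4a-TKO 0 were higher and 1 lower (Ctla4, -1.28). Between genotypes 1 was higher in Nr4a-TKO naive cells (Gpr83, 1.56) and 2 lower (Ikzf2, -1.37, and Foxp3, -1.31). At 3 h 2 were higher (Gpr83, 2.27, and Nrp1, 1.05) and 1 lower (Foxp3, -1.36). Foxp3 read 7.41, 6.10, 7.53 and 6.17, above background on the 4 arrays although Foxp3- cells had been sorted.

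The genes whose 4 values ran most like each member were sought among 15629 genes with a symbol and a probe well above background on the 4 arrays, by the Euclidean distance between mean-centred log2 values. For Cd69 these were Gm15645 (0.20) and Crem (0.25), for Tfrc Fosl2 (0.19) and Gadd45b (0.29), and for Cd44 Casc1 (0.094) and Tnfsf8 (0.095). Tnfsf8, the ligand of CD30, read 8.90, 9.25, 9.75 and 11.36, and its second probe 6.35, 6.87, 8.14 and 9.47, so both were highest in Nr4a-TKO iTreg 3 h as Cd44 was. Nearest to Ly6a were Nfatc2 (0.11) and Slfn10-ps (0.14). Nfatc2, a calcium-driven factor, was 1.02 higher in Nr4a-TKO at 3 h on its brightest probe but only 0.41 and -0.04 on its other probes. Cd5 lay nearest to Eme2 (0.094) and Haus7 (0.14), Cd6 to Isyna1 (0.030) and Slc12a4 (0.040), and Cd24a to Zfp97 (0.027) and Gcnt7 (0.029). With 4 arrays, a small distance is a description of these values and no more.

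The RefSeq promoter table (GRCm38.p6) held 3 of the 7 genes, Cd44, Cd5 and Tfrc, the last with 2 start sites. The 250 bases before the start site were searched on both strands for 6 short motifs: the Nr4a monomer element AAAGGTCA, the Ets element AGGAAG, the AP-1 element TGANTCA, the cyclic AMP element TGACGTCA, the STAT element TTCNNNGAA and the Egr element GCGGGGGCG. Only the Ets element was found, 3 times before Cd44, 2 times before Cd5, and 2 times before the downstream start of Tfrc. It stood in 29.5% of all promoters of that length, the AP-1 element in 6.75% and the Nr4a element in 1.34%. A match is a run of letters and not evidence of binding, and the absence of the other motifs says only that these letters are not in these windows. The promoters of Cd44 and Cd5, which were both higher in Nr4a-TKO at 3 h beyond the spot spread, are shown, each on the minus strand and read 5′ to 3′ toward the start site, with the Ets letters on either strand in capitals.
Cd44, chr2:102901666-102901915: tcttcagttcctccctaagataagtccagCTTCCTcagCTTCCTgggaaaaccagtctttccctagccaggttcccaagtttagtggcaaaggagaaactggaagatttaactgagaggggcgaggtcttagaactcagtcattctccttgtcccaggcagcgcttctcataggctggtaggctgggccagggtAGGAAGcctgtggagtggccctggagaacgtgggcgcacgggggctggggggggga
Cd5, chr19:10738975-10739224: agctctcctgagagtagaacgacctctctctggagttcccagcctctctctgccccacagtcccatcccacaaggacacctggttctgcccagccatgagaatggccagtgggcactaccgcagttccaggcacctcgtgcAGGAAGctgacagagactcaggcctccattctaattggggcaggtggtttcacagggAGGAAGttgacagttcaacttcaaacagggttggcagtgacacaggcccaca

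The values at 3 h depended little on how the intensities were processed, except near the 2-fold line. Over 6 ways of processing, the difference between the genotypes stayed between 1.40 and 1.64 on the first Cd44 probe, between 1.10 and 1.51 on the second and between 0.92 and 1.03 for Ly6a, which crossed 2-fold in 3 of the 6. The third Cd44 probe, close to background, ranged from 0.25 to 1.49.

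**Figure D5:**
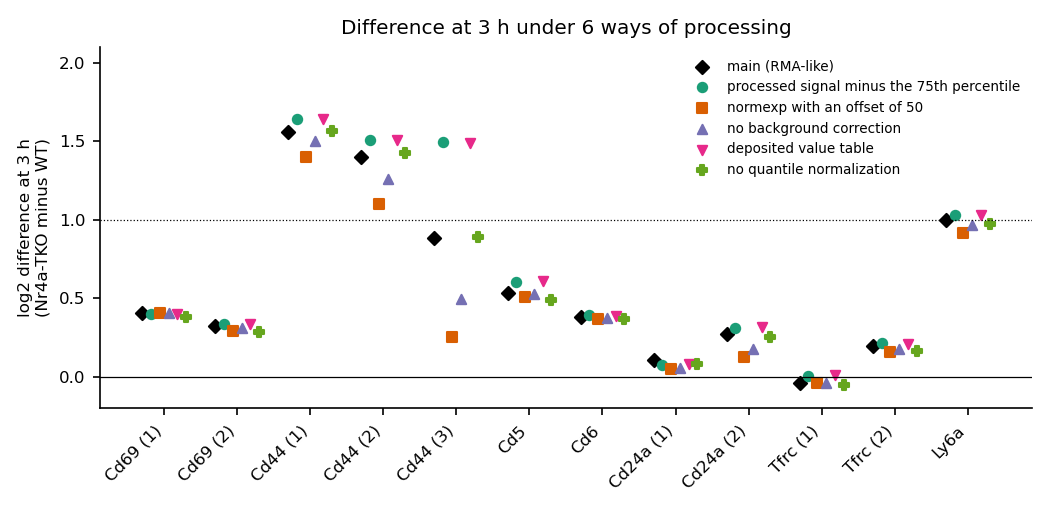
Log2 difference between Nr4a-TKO and WT at 3 h for each probe under 6 ways of processing the same spots, with a dotted line at 2-fold. The first 2 Cd44 probes lie above the line in all 6, Ly6a lies across it (0.92 to 1.03), and the third Cd44 probe is spread from 0.25 to 1.49.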

How the data were processed

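For each of the 4 arrays the authors deposited the output of Agilent Feature Extraction 11.5.1.1, a version named in the submitters' processing notes, with the mean, local background and processed intensity of 62976 spots and flags for spots well above background. They also deposited log2 values for the probes. Their methods name RMA in GeneSpring. From the spot intensities, values were made by comparable but not identical steps with limma 3.58.1 in R 4.3.3 (files read with version 1.17.8 of data.table). Mean intensities were corrected for local background by normexp with an offset of 0, brought to common quantiles on the 4 arrays, put on the log2 scale and averaged over the spots of each probe, without control spots and the 115 to 160 outlier spots per array. Python 3.11.15, pandas 2.3.3, numpy 2.4.6 and matplotlib 3.10.9 served for the rest. The steps were tested on simulated arrays with planted changes well past 2-fold, which were scored on bright probes alone. That test does not cover changes on dim probes or changes near 2-fold. Dim values below the lowest value that passed the background flag on their array (3.07 to 3.45) were raised to it, which makes a difference a bound. Dim values above it, such as those of Il2 and the third Cd44 probe in WT naive T, were kept as read. Where such a difference is marked as a bound, it is a plain difference from a dim reading. Pairs of arrays that were both dim gave no value. The threshold was 2-fold. Quantile normalization and background correction both act on dim probes most, which limits the third Cd44 probe, both Cd24a probes and the second Tfrc probe. The member differences in the deposited log2 values lay within 0.025 of those from the processed signal scaled to the 75th percentile, and up to 0.60 from those reported.

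Of 56605 probes, 43736 were named through the RefSeq genes of GRCm38.p6, used for names and promoters alone, another 8038 by the name given in the files, and 4831 stayed unnamed. Probe coordinates are those in the files (mm9). Samples were grouped by their titles, 1 per group, so no test was run. Every member is given with every probe, and from each gene list up to 2 genes of the largest size past 2-fold in each direction, with the targeted genes and markers of other cell types. Members and lists were chosen with earlier results of these data known. Alternatives were the processed signal scaled to the 75th percentile, an offset of 50 in normexp, intensities without background correction, the deposited log2 values, no quantile normalization, thresholds of 1.5-fold and 3-fold, other filters on dim probes and the average over a gene's probes. A few genes counted in these lists are not reported here by name or drawn.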

Additional observations from a re-analysis of the deposited data

Results flagged for a closer look

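The difference between the arrays labelled Nr4a-TKO and WT had opposite signs in naive T and in iTreg 3 h for 3 probes. The first Cd69 probe gave -0.070 in naive cells and 0.41 at 3 h, Cd6 gave -0.083 and 0.38, and the first Tfrc probe gave 0.10 and -0.039. The naive values of all 3, and the Tfrc value at 3 h, were within the spot spread of 0.18. With 1 array per group these differences were not tested.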

How the results depend on the processing

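With 1 array per group no replicate could be left out, and no paired analysis was possible because each group had 1 sample. Of the 20 member values past 2-fold (including differences between the changes), all 20 kept their sign under each of the 5 other ways of processing, and 20 stayed past 2-fold with the processed signal and with the deposited table, 19 without quantile normalization and 15 with an offset of 50 or with no background correction. None of the member values past 2-fold reversed. The number of the 7 genes more than 2-fold higher in Nr4a-TKO at 3 h, 2 as reported, was 1 with an offset of 50, with no background correction and without quantile normalization, where Ly6a gave 0.92, 0.97 and 0.97, and 0 at 3-fold. With the processed signal or the deposited values 1 of the member probes was past 2-fold between naive genotypes, the second Cd24a probe at 1.14, and at 1.5-fold 2 were. At 1.5-fold Ly6a also counted as lower in Nr4a-TKO (1 gene, 1 probe), and at 3-fold 3 of the member probes were higher in WT and 0 differed between genotypes at 3 h. Cd5 fell short of 2-fold in WT with an offset of 50 (0.95) and with no background correction (0.998), as did the second Cd44 probe (0.67 and 0.91). Cd44 passed it in WT without quantile normalization (1.04). The number of the 7 genes more than 2-fold higher in WT, 3 as reported, was 2 with the offset, 2 with no background correction and 4 without quantile normalization. Cd6 passed 2-fold in Nr4a-TKO with the processed signal, the deposited table and no quantile normalization (1.09, 1.10 and 1.25). The cause was not tested. Leaving out quantile normalization moved the median change of all genes in WT by 0.12.

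Over the 9 alternatives that give such counts, all genes past the threshold of that alternative were counted. Higher ones numbered 773 to 3929 in WT (1960 as reported) and 636 to 3877 in Nr4a-TKO (1855), and lower ones 887 to 4082 (1992) and 808 to 3968 (1901). Between genotypes they numbered 93 to 1203 higher (445) and 83 to 1215 lower (389) in naive cells, and 75 to 1244 (410) and 99 to 1214 (456) at 3 h. The ends came from the thresholds of 1.5-fold and 3-fold or from the offset of 50. Signal close to background limits the third Cd44 probe, both Cd24a probes and the second Tfrc probe, which had the largest shift of any member value (1.73, from 3.68 to 1.96 in WT with an offset of 50). The deposited values and the scaled processed signal are nearly the same data, so they are not independent alternatives.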
